A study of Mus musculus with 2 samples.

Results

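Antiviral PARPs and Schlafens are families of genes that interferon switches on in many cell types. The 10 genes described here are Parp9, Parp10, Parp12, Parp14, Dtx3l, Slfn2, Slfn4, Slfn5, Slfn8 and Slfn9, chosen by symbol from 22350 symbols, and all 10 were listed in both libraries. RNA came from colon epithelial cells of C57BL/6 mice, in 1 wild type library and 1 Pkm2-/- library. Mice of both genotypes were given DSS (dextran sulfate sodium, which damages the colonic epithelium and causes colitis) at 2.5% for 3 days. No library without DSS was part of the comparison, so every level below is that of cells from DSS-treated mice. How many mice gave each library, their age, and how and in which cells the Pkm2-/- allele removes Pkm2 are not stated in the labels.

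PARPs transfer ADP-ribose from NAD onto proteins or nucleic acids. The interferon-induced members mostly add a single ADP-ribose unit, and several carry macrodomains that bind ADP-ribose on viral or host proteins. Schlafens are found in mammals in forms of different length, of which the longest have a helicase-like region. Several cut or bind transfer RNA or hold immune cells in quiescence. In the gut, interferon-lambda acts mainly on the epithelium, and interferon-gamma from lymphocytes acts on epithelium and immune cells alike. Signals of type I and type III interferons pass through ISGF3, a transcription factor complex that includes STAT2 and IRF9, and those of interferon-gamma act through gamma-activated sites in promoters.

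Levels are FPKM, fragment counts corrected for transcript length and sequencing depth, so levels of different genes can be set side by side within a library. Spacing of the smallest values implied a depth near 18800000 fragments for wild type and 21400000 for knockout cells. Since each genotype had 1 library, no test was made, and every difference is one between these 2 libraries without a replicate check. Intervals are 95% Clopper-Pearson intervals on the implied fragments and cover counting error only. Pkm, the targeted gene, had 281 FPKM in wild type cells against 86.2 FPKM in knockout cells, a gene-level value that joins its isoforms. The sampled tissue matched its label in both libraries, with the epithelial keratins Krt8 (1814 and 2164 FPKM) and Krt19 (1185 and 1505 FPKM, wild type first here and in all later brackets) the most abundant of 8 epithelial markers.

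The comparison of the libraries asked how far these genes differed with the Pkm2 genotype under DSS. Slfn4 was 5.91-fold lower in the knockout library. None of the other 9 genes was at least 2-fold apart, and their knockout to wild type ratios ran from 0.601 for Parp12 to 1.13 for Dtx3l. On the scale log2((knockout FPKM + 1)/(wild type FPKM + 1)), which understates differences of low genes, the members' median was -0.11, against 0.06 over 12429 genes whose mean reached 1 FPKM. Without Slfn4 it was -0.03. All 10 members passed that minimum, 1 was at least 2-fold lower and 0 were at least 2-fold higher, where 1.90% of all genes were at least 2-fold lower and 1.42% at least 2-fold higher. By level, the order in both libraries was Slfn4, Parp9, Parp14, Dtx3l, Parp10, Slfn9, Slfn2, Slfn5 and Slfn8, with Parp12 at place 2 in wild type and at place 4 in knockout cells. In RNA from many cells together, fewer cells of a type and less RNA per cell cannot be told apart.

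**Figure D1:**
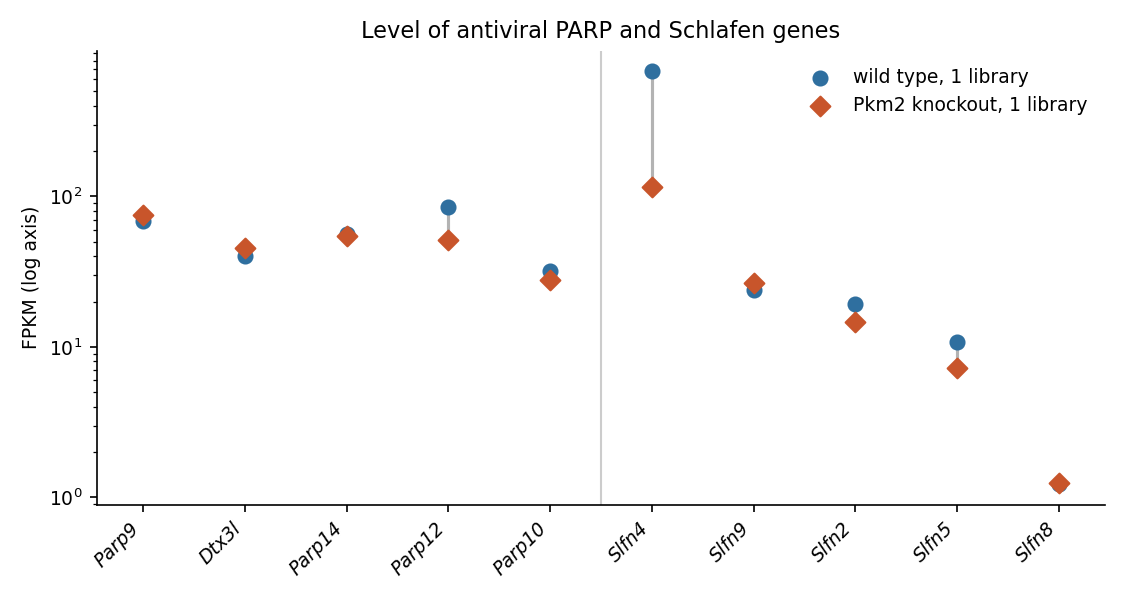
FPKM of the 10 genes on a log axis, with circles for the wild type and diamonds for the Pkm2 knockout library, 1 library each, and PARPs with Dtx3l left of the vertical line. The points of Slfn4 lie at 678 and 115 FPKM, and those of Slfn8 at 1.23 and 1.24 FPKM coincide.

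Of the PARP group, Parp9 and Dtx3l come first because they act as a pair: PARP9 binds ADP-ribose through its macrodomains, and DTX3L is the ubiquitin ligase it associates with. Parp9 (ENSMUSG00000022906, chromosome 16, 35938470 to 35972605 on GRCm38, plus strand) had 68.8 FPKM in wild type cells against 75.2 FPKM in knockout cells. Dtx3l (ENSMUSG00000049502, chromosome 16, 35926511 to 35939151, minus strand) stood at 40.2 and 45.5 FPKM. Both were slightly higher in the knockout library, Parp9 by a ratio of 1.09 (interval 1.05 to 1.14) and Dtx3l by 1.13 (interval 1.09 to 1.18). With the libraries set to equal medians these ratios were 1.03 (interval 0.992 to 1.07, which holds 1) and 1.07 (interval 1.02 to 1.11). The level of Parp9 over that of Dtx3l was nearly the same in the libraries, at 1.71 in wild type against 1.65 in knockout cells. The annotated genes overlap head to head by 682 bases, and whether counting used strand is not stated in the labels, so reads from the shared stretch cannot be told apart.

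Parp14, a large macrodomain PARP known as a cofactor of STAT6 in interleukin-4 signalling, lies on the same chromosome 55.0 kb from Dtx3l (ENSMUSG00000034422, chromosome 16, 35832874 to 35871544, minus strand). It had 56.0 FPKM in wild type cells against 54.9 FPKM in knockout cells. This ratio of 0.980 had an interval of 0.950 to 1.01, which holds 1. With equal library medians it was 0.924 (interval 0.896 to 0.953). Its log2 ratio of -0.03 turned to 0.02 when the libraries were set to equal sums without mitochondrial genes. The 3 genes of this stretch of chromosome 16 thus had log2 ratios of -0.03, 0.17 and 0.13 for Parp14, Dtx3l and Parp9, all within 0.2 of 0.

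Parp12 and Parp10 sit on other chromosomes. Parp12 (ENSMUSG00000038507, chromosome 6, 39086410 to 39118349, minus strand) encodes a zinc-finger PARP that restrains replication of several RNA viruses. It was the most abundant of the PARP group in the wild type library, at 85.4 FPKM, and had 51.3 FPKM in the knockout library, below Parp9 and Parp14. That is 1.66-fold lower (interval 1.59 to 1.74), the largest difference within the PARP group. Over all genes, 437 of 12429 had a lower log2 ratio than Parp12. Parp10 (ENSMUSG00000063268, chromosome 15, 76231174 to 76243441, minus strand), a mono-ADP-ribosyltransferase first described as a partner of MYC, stood at 32.2 and 27.9 FPKM, 1.15-fold lower (interval 1.08 to 1.23). Of the words of 31 bases in the longest annotated transcripts of Parp12 and Parp10, 0% occur in transcripts of another gene, so no near-identical copy is annotated for either. The deposited locus of Parp10 also spans the cytolinker gene Plec (41.1 and 41.4 FPKM). Likewise, that of Parp9 and Dtx3l spans Kpna1 (11.5 and 15.2 FPKM), and that of Slfn5 spans Unc45b (0 and 0.0123 FPKM).

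**Figure D2:**
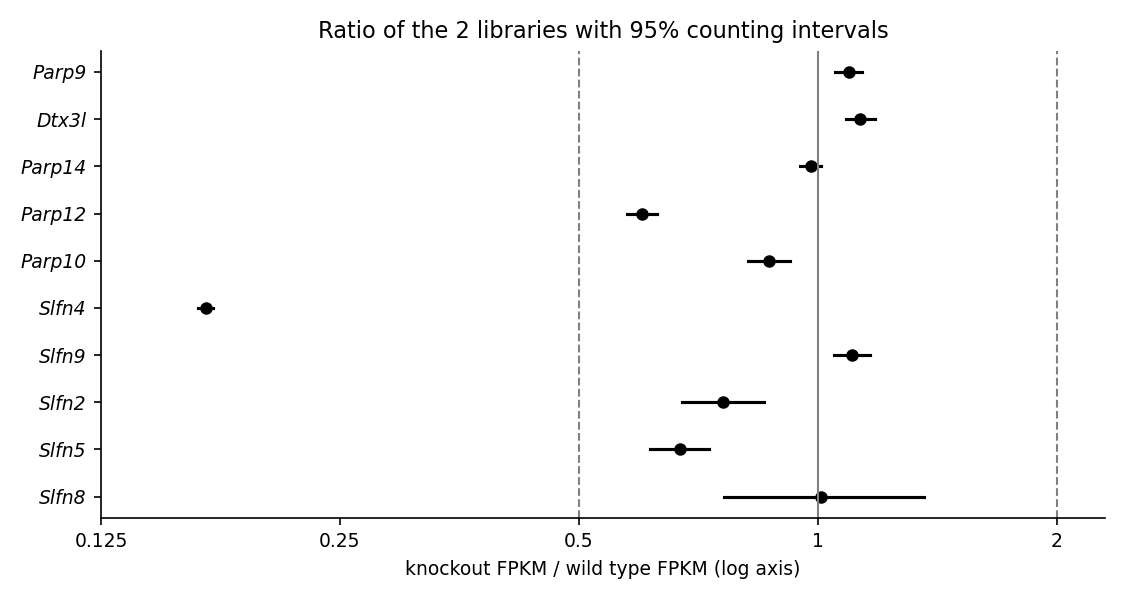
Knockout over wild type FPKM for each gene on a log axis, with bars for 95% counting intervals, a solid line at 1 and dashed lines at 0.5 and 2. Slfn4 lies at 0.169, beyond the dashed line, and the other 9 genes lie between 0.601 and 1.13.

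The Schlafens lie together on chromosome 11 in a cluster of 263.8 kb from Slfn5 to Slfn3. Slfn4 (ENSMUSG00000000204, chromosome 11, 83175186 to 83190216, plus strand), best known from activated macrophages and from myeloid cells of the inflamed stomach, had the highest level of all members. Its wild type value was 678 FPKM, the 68th highest of all symbols, and its knockout value was 115 FPKM, at place 563. The fold of 5.91 had a counting interval of 5.78 to 6.04, on about 50369 and 9745 fragments. Only 21 of 12429 genes had a lower log2 ratio than the -2.55 of Slfn4. It made up 66.8% of the summed FPKM of the 10 members in wild type cells against 27.4% in knockout cells, and the sum itself was 1016 and 419 FPKM. Without Slfn4, the sum over the other 9 was 338 and 304 FPKM.

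Slfn9 (ENSMUSG00000069793, chromosome 11, 82978390 to 82991830, minus strand), a long Schlafen, was the Schlafen next in level, with 23.9 FPKM in wild type against 26.4 FPKM in knockout cells. Slfn4 thus stood 28.4-fold above Slfn9 in wild type and 4.35-fold above it in knockout cells. Slfn8 (ENSMUSG00000035208, chromosome 11, 83002158 to 83020810, minus strand), the neighbouring long Schlafen, was low in both, at 1.23 and 1.24 FPKM. The ratio of Slfn9 was 1.10 (interval 1.05 to 1.16) and that of Slfn8 was 1.01 (interval 0.763 to 1.36, on about 92 and 107 fragments). With equal library medians that of Slfn9 was 1.04 (interval 0.989 to 1.10). These are related copies: 28.0% of the 31-base words of the Slfn8 transcript occur in transcripts of other genes, 19.5% in Slfn9 alone, and 24.4% of those of Slfn9 occur elsewhere, so their separate values are uncertain.

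Slfn2 and Slfn5 were lower in the knockout library by less than 2-fold. Slfn2 (ENSMUSG00000072620, chromosome 11, 83065112 to 83070678, plus strand), a short Schlafen that keeps T cells and monocytes quiescent and binds transfer RNA, stood at 19.2 and 14.6 FPKM, 1.32-fold lower (interval 1.17 to 1.48). Slfn5 (ENSMUSG00000054404, chromosome 11, 82951349 to 82964840, plus strand), a long nuclear Schlafen, stood at 10.8 and 7.21 FPKM, 1.49-fold lower (interval 1.37 to 1.63). An antisense transcript, Slfn5os, covers part of Slfn5, and without known strand use their reads cannot be separated. Of the 31-base words of the Slfn4 transcript, 21.2% occur in other genes, most of them in Slfn3 (13.1%), and Slfn3 itself stood at 0.269 and 0.146 FPKM.

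**Figure D3:**
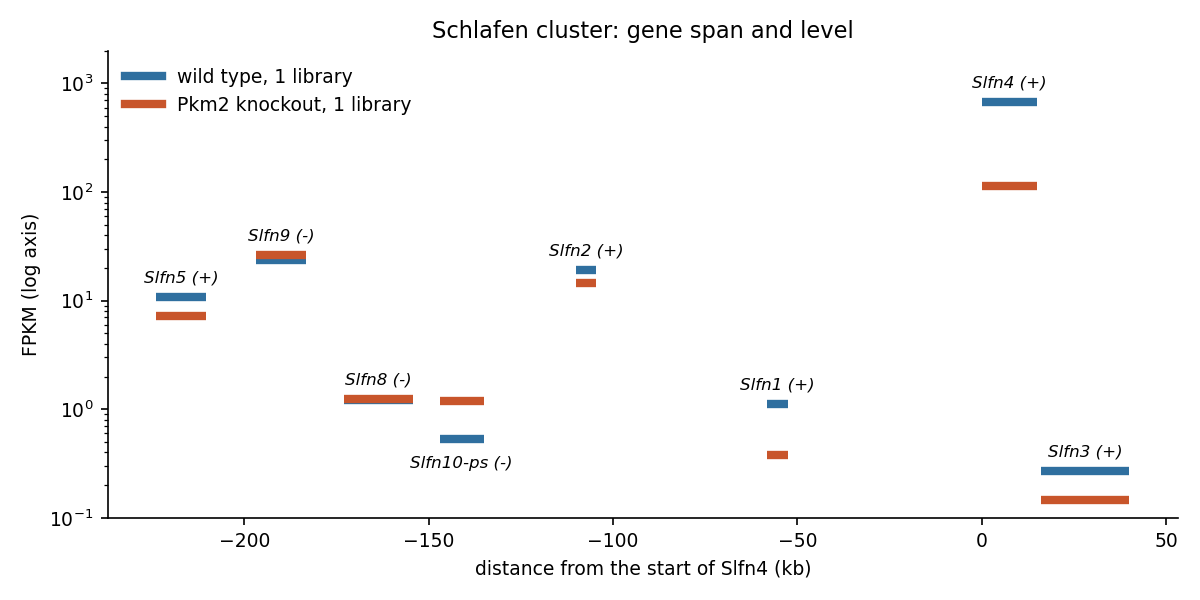
Span of each listed Schlafen gene of the chromosome 11 cluster (distance from the start of Slfn4 in kb, strand in brackets) and its FPKM on a log axis in the wild type (blue) and knockout (orange) library. Slfn4 lies at 678 and 115 FPKM, and Slfn3, 1.11 kb beyond its end, at 0.269 and 0.146 FPKM.

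The rest of the cluster was low. Slfn1 had 1.11 FPKM in wild type cells against 0.383 FPKM in knockout cells, on about 39 and 15 fragments. The pseudogene Slfn10-ps stood at 0.536 and 1.19 FPKM, on about 36 and 92 fragments, and so lay in the other direction. Slfn14 was listed in neither library, and the Schlafen-like gene Slfnl1, on another chromosome, was at 0.0544 and 0.0511 FPKM. None of these had a mean of 1 FPKM. Among the plus-strand genes Slfn5, Slfn2, Slfn1, Slfn4 and Slfn3, all 5 values were lower in the knockout library, and the minus-strand genes Slfn9, Slfn8 and Slfn10-ps were higher, a split seen after the values were known. The intervals of Slfn3 and Slfn8 hold 1, and Slfn8 turned lower with equal library medians and with equal upper quartiles.

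Promoters were compared because the members differed in size and direction. Entries of the RefSeq promoter table (GRCm38.p6) matched 7 of the 10 members: Parp12, Dtx3l, Slfn2, Slfn4, Slfn5, Slfn8 and Slfn9. The 250 bases before the start were searched for GAAA, any 2 bases and GAAA, the core of the interferon-stimulated response element (ISRE) that ISGF3 and IRF proteins bind, and for TTC, any 3 bases and GAA, the core of the gamma-activated site, on both strands. The ISRE core occurred in 3 of the 7 genes, Slfn5, Slfn8 and Slfn9. Over all 32851 promoters, counted by entry and not by gene, it occurred in 2.98%. The gamma-activated core, found in 7.02% of all promoters, occurred in none of the 7, so that no matches overlapped. The matches of Slfn8 and Slfn9 are not independent, since these genes are related copies, and that of Slfn5 borders a run of A. Below are the windows of these 3 genes and of Slfn4 and Parp12, the members with the largest differences, 5′ to 3′ on the gene's strand, without annotated untranslated bases. Capitals mark the ISRE core.
Slfn9 (chr11:82991831-82992080, minus strand): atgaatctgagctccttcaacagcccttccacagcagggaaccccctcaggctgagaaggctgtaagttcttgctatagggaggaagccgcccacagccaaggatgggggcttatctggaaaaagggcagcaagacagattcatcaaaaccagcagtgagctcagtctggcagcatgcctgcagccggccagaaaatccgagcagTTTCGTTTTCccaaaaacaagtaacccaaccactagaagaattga
Slfn8 (chr11:83020811-83021060, minus strand): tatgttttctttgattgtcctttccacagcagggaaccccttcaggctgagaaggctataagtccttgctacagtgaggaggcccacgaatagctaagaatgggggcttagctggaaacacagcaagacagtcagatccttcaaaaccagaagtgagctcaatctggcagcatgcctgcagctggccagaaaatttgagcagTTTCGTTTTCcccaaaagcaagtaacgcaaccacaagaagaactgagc
Slfn5 (chr11:82951852-82952094, plus strand): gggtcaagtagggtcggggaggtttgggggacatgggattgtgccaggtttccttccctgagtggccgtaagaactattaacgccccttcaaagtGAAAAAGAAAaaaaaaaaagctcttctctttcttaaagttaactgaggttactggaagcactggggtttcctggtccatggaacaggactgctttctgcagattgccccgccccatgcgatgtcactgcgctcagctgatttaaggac
Slfn4 (chr11:83174936-83175185, plus strand): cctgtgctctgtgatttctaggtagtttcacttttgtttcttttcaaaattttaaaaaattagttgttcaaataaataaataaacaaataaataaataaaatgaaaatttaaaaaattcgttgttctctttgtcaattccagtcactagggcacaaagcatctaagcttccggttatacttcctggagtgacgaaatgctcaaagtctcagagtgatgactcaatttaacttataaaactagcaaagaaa
Parp12 (chr6:39118350-39118599, minus strand): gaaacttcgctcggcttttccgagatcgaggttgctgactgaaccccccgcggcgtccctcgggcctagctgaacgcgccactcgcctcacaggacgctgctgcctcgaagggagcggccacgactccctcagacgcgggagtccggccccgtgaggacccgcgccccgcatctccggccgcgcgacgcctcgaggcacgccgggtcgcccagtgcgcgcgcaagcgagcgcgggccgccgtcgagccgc

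The same letters, TTTCGTTTTC, stood 45 to 36 bases before the start in Slfn9 and 48 to 39 bases before it in Slfn8, whose second table entry starts further downstream and has them 136 to 127 bases before it, and these genes had ratios of 1.10 and 1.01. In Slfn5 the core read GAAAAAGAAA, 155 to 146 bases before the start, in a gene that was 1.49-fold lower. That start of the promoter table lies inside the annotated gene, which begins at 82951349. The Slfn5 window thus lies downstream of the annotated gene start and not before it. Slfn4, with the largest difference, and Parp12 held neither core in this window, nor did Slfn2 and Dtx3l. Among other interferon-induced genes with an entry, the ISRE core occurred in 10 of 21 ISGF3 type genes and in 9 of 12 interferon-gamma type genes. The gamma-activated core occurred in 4 of the 21 and in 5 of the 12. Of 11 other PARP genes with an entry, 2 held the ISRE core and 1 the gamma-activated core. A match is a description of letters and not a bound site, and a missing match says only that these letters are not in this window.

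Other genes of the pathways were read from lists, each by its counts and median. These lists were chosen with earlier results of these data known, so their counts are no independent measure. Over all genes, 1.90% were at least 2-fold lower and 1.42% at least 2-fold higher. All 28 genes of a list of ISGF3 type antiviral genes, such as Ifit and Oas genes, had log2 ratios below 0, and 19 were at least 2-fold lower, with a median of -1.20. The lowest were Ifit3 (62.3 and 7.24 FPKM), which binds viral RNA with other Ifit proteins, and Rsad2 (43.8 and 5.20 FPKM), the enzyme viperin, and the highest were Eif2ak2 (39.3 and 27.3 FPKM), the RNA-activated kinase PKR, and Zbp1 (99.0 and 90.1 FPKM), a sensor of Z-form nucleic acid. Of 21 interferon-gamma type genes, 19 were at least 2-fold higher and 0 lower, with a median of 2.68. Their ends were Ido1 (10.3 and 1037 FPKM) and Cd74 (32.9 and 1617 FPKM) at the top, and Irgm1 (124 and 227 FPKM) and Gbp3 (31.7 and 55.9 FPKM), GTPases against intracellular microbes, at the bottom.

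Set against these lists, 5 members lay within the range of the ISGF3 type genes and 5 between the lists. Slfn4, at -2.55, had a ratio below 26 of the 28 ISGF3 type genes, with Ifit3 and Rsad2 lower. Parp12, at -0.72, lay above 24 of the 28 and below 4. Slfn5 (-0.52) lay above 26 of them, and Slfn2 (-0.37) and Parp10 (-0.20) above 27. Parp14, Slfn8, Parp9, Slfn9 and Dtx3l had higher ratios than all 28. Every member had a lower ratio than each of the 21 interferon-gamma type genes, whose smallest was 0.80. How the members differ from either list was described by these counts and not tested.

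**Figure D4:**
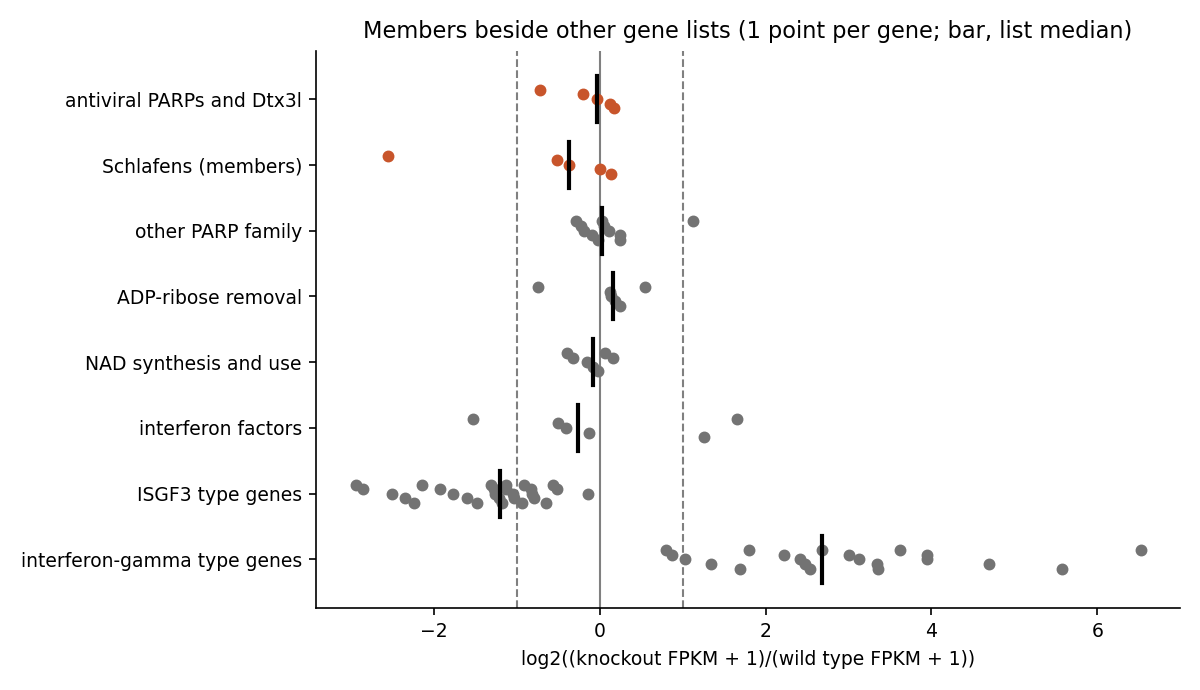
Log2 ratio of knockout over wild type (pseudocount 1 FPKM) for each gene whose mean reached 1 FPKM, by list, with a black bar at the list median, a solid line at 0 and dashed lines at 2-fold. Members are orange: Slfn4 lies at -2.55 among the lowest ISGF3 type genes, and the other members lie between -0.72 and 0.17.

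The factors that carry interferon signals went both ways. Of 6, 2 were at least 2-fold higher: Irf1 (103 and 247 FPKM), a factor induced by interferon-gamma, and Irf8 (42.2 and 135 FPKM). Irf7 (266 and 91.5 FPKM), the amplifier of type I interferon, was at least 2-fold lower, and the ISGF3 parts Stat2 (67.1 and 47.1 FPKM) and Irf9 (51.0 and 38.2 FPKM) were lower by less. Irf2 (35.2 and 32.3 FPKM) was near 0, and the list's median was -0.27. Among ligands and receptors, 6 of 10 had a mean of at least 1 FPKM and none was 2-fold apart, with Ifnar2 (3.76 and 5.41 FPKM) and Ifnar1 (9.98 and 13.2 FPKM), the type I receptor chains, highest in ratio and Ifngr1 (82.0 and 65.8 FPKM) and Ifnlr1 (4.38 and 3.61 FPKM), chains of the interferon-gamma and interferon-lambda receptors, lowest. The ligand genes Ifnb1, Ifnl2 and Ifng were each listed in 1 library only. In wild type cells Ifnb1 had 0.0617 FPKM on about 1 fragment and Ifnl2 had 0.329 FPKM on about 4. In knockout cells Ifng had 0.667 FPKM on about 17 fragments. Ifnl3 was listed in both libraries (0.158 and 0.0724 FPKM), on about 2 and 1 fragments. The intervals of Ifnb1, Ifnl2 and Ifnl3 hold a ratio of 1, and these ligand genes are named after their values were seen.

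The remaining PARP family was compared next, the interferon-induced Zc3hav1 among it. Of 12 other family members, 11 had a mean of at least 1 FPKM, with a median of 0.03, and 1 was at least 2-fold higher. That one was Parp3 (6.74 and 15.8 FPKM), a PARP of DNA break repair, at a ratio of 2.35 (interval 2.08 to 2.65), and with a pseudocount of 5 FPKM it no longer passed 2-fold. Next were the tankyrases, which act on axin, with Tnks2 (25.5 and 30.5 FPKM) at a log2 ratio of 0.25 and Tnks (5.86 and 7.11 FPKM) at 0.24. The lowest were Zc3hav1 (43.2 and 35.3 FPKM), the antiviral zinc-finger protein ZAP that has lost the transferase activity, and Parp6 (11.97 and 10.1 FPKM). The antiviral Zc3hav1 thus lay at -0.28, between Parp10 and Slfn2. Of the other Deltex genes, relatives of Dtx3l, Dtx2 (3.53 and 3.65 FPKM), Dtx3 (4.20 and 3.43 FPKM) and Dtx4 (3.76 and 5.30 FPKM) were low, none 2-fold apart, and Dtx1 (0.655 and 0.962 FPKM) had a mean below 1 FPKM.

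Of 6 measured enzymes that remove ADP-ribose, 5 had log2 ratios above 0, as did 58.8% of all genes, and none was 2-fold apart. Their median was 0.17. Parg (9.97 and 15.0 FPKM), which cuts ADP-ribose chains, was highest, at a ratio of 1.51 (interval 1.38 to 1.65). Macrod1 (14.4 and 8.19 FPKM), which removes single units from proteins, was the exception, 1.76-fold lower (interval 1.48 to 2.09). Adprh (11.9 and 14.3 FPKM), Adprhl2 (8.74 and 10.1 FPKM), Macrod2 (3.08 and 3.50 FPKM) and Oard1 (15.4 and 16.9 FPKM) lay between, and Adprhl1 was listed in the knockout library alone, at 0.139 FPKM.

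Markers of other cell types moved between the libraries as well. For Slfn4, macrophage and neutrophil markers are the ones to set beside it. Over 9 macrophage and dendritic cell markers the summed level was 7.01 FPKM in wild type against 12.5 FPKM in knockout cells. A mean of at least 1 FPKM was reached by 5 of the 9. Of these 5, 3 had log2 ratios above 0, 2 of them at least 2-fold higher, and 2 had log2 ratios below 0. By the mean of both libraries Lyz2 (2.97 and 2.74 FPKM) and Fcer1g (0.804 and 4.22 FPKM) were the most abundant, although Cd68 (1.63 and 1.56 FPKM) was above Fcer1g in wild type cells. Slfn4 itself had 678 and 115 FPKM. Of 8 neutrophil markers, S100a8, S100a9, Retnlg, Mmp8 and Mpo were listed in neither library, Csf3r and Cxcr2 were below 0.1 FPKM in both, and Ly6g stood at 25.4 and 13.1 FPKM. Missing entries do not show silence, since Txnrd1 and mt-Co1, used by nearly all cells, had none. T cell markers, 8 of 9 with a mean of at least 1 FPKM, summed to 20.9 and 84.6 FPKM, with Gzma (3.34 and 25.03 FPKM) and Gzmb (2.55 and 16.9 FPKM) the most abundant by the mean of both libraries, although Lck (4.14 and 9.05 FPKM) was higher than either in wild type cells. Slfn2 was lower in the knockout library. Markers of B and plasma cells summed to 6.42 and 22.1 FPKM, with Igkc (3.81 and 16.8 FPKM) and Ighm (1.58 and 2.33 FPKM) the most abundant. Those of fibroblasts summed to 4.34 and 1.35 FPKM, led by Dcn (2.65 and 0.870 FPKM) and Col3a1 (1.20 and 0.239 FPKM), with Lum listed in neither library. Those of endothelium summed to 0.481 and 0.512 FPKM, led by Pecam1 (0.365 and 0.353 FPKM) and Eng (0.0419 and 0.115 FPKM). The part of these cells in the members' values was not tested.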

How the data were processed

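Messenger RNA was sequenced from 1 wild type and 1 Pkm2-/- library. The values were FPKM as the authors deposited them, 1 per Ensembl gene with symbol and locus. Without header lines, the unit had to be read from the values and the tools. Per the submitters' processing notes reads were handled with TopHat2 2.1.1 and Bowtie2 2.2.9, then Cuffdiff (1.3.0 and 2.2.1) and Cufflinks 2.2.1, with build mm8. The deposited loci belong to another build: of 22384 gene IDs, 99.4% were in GENCODE M21, and 99.96% of these overlapped their GRCm38 locus, so GRCm38 coordinates are given. FPKM is relative to the mapped total. Listed mitochondrial genes made up 16.8% and 15.1% of the summed FPKM, which is not their share of mapped fragments. Since mt-Co1 had no entry, these shares do not cover every mitochondrial gene.

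Rows of 1 symbol were summed and an unlisted gene was set to 0 (Python 3.11.15, pandas 2.3.3). Genes whose mean reached 1 FPKM were counted by 2-fold on the log2 scale with pseudocount 1. The value of 1 fragment came from single-transcript genes longer than 1.5 kb, and implied fragments used the longest annotated transcript. The deposited loci of Slfn9 and Slfn5 stop short of the annotated genes at the 3′ end. Their implied fragments may thus be too many and their intervals too narrow. Depth and intervals were tested on simulated data. The simulation used the same transcript lengths and no shared reads, so the choice of length and reads shared between genes were not tested. Alternatives changed the pseudocount, the minimum, the scaling and the summing. Members and lists were chosen with earlier results of these data known, and 1 gene of the interferon factor list is not reported here. The rule for names took all members, Pkm, the 2 highest and lowest measured genes of each list by log2 ratio, all genes of pathway lists of up to 7, the 2 most abundant markers by mean and those not listed, and the 3 listed genes on either side of each locus, of which those below 1 FPKM are only counted.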

Additional observations from a re-analysis of the deposited data

How the results depend on the processing

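Slfn4 stayed at least 2-fold lower and no other member was 2-fold apart under all 8 alternatives, with the log2 ratio of Slfn4 between -2.64 and -2.50 and that of Parp12 between -0.81 and -0.68. The sign turned for Parp14 under 1 alternative and for Slfn8 under 2 of the 7 that kept it, with ranges of -0.11 to 0.02 and -0.04 to 0.04. Equal library medians and upper quartiles moved the median over all genes from 0.06 to -0.01 and 0.00350, and equal sums without mitochondrial genes moved it to 0.10. The members' median was -0.20 with a minimum of 5 FPKM and -0.20 with equal library medians. Genes at least 2-fold higher and lower numbered 176 and 236 as reported, 272 and 361 with a pseudocount of 0.1 FPKM, 85 and 124 with one of 5 FPKM, and 111 and 154 with a minimum of 5 FPKM, which tests fewer genes. With a pseudocount of 5 FPKM, 0 other PARPs were 2-fold higher, the ISGF3 type median was -1.07 and the interferon-gamma type median was 2.02, which was 3.12 with a pseudocount of 0.1 FPKM. The median of the interferon factors was -0.35 with equal medians and -0.33 with equal upper quartiles. Apart from the fixed effect of a pseudocount or minimum, the cause was not tested. Depth limits Slfn8 most, with about 92 and 107 fragments. No paired analysis was possible because each genotype has 1 library.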

Other observations

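Genes next to the member loci were read from the deposited loci. Genes inside these loci or between members, such as Kpna1, Plec and Unc45b, were not counted as neighbours. Of the 3 listed genes on either side of the Schlafen members (Slfn3 being one), of the Parp14 to Parp9 stretch, of Parp12 and of Parp10, 24 in all, 14 had a mean of at least 1 FPKM and 0 of these were at least 2-fold apart, where 1.90% of all genes were lower and 1.42% higher by that much. Beside the Schlafens, Nle1 (7.91 and 9.76 FPKM, wild type first), a ribosome assembly gene, and Rad51d (8.72 and 7.56 FPKM), a recombination gene, flank the Slfn5 end. There the deposited locus of Slfn5 starts well before the annotated gene. Beside Parp12, the kinase gene Hipk2 stood at 6.92 and 9.77 FPKM and the histone demethylase gene Kdm7a at 11.6 and 11.4 FPKM. Near Parp14 and Parp9, Fam162a (118 and 83.4 FPKM) was lower by less than 2-fold, and Dirc2 (17.7 and 15.5 FPKM), Hspbap1 (1.63 and 1.78 FPKM), Wdr5b (1.84 and 2.06 FPKM) and Ccdc58 (13.6 and 13.5 FPKM) differed less. Near Parp10, Nrbp2 (15.9 and 9.11 FPKM), Grina (67.9 and 44.5 FPKM) and Oplah (8.06 and 5.45 FPKM) were lower by less than 2-fold, Nrbp2 with a log2 ratio of -0.74 beside -0.20 for Parp10. Puf60 (45.4 and 48.1 FPKM) and Exosc4 (7.46 and 7.93 FPKM) were slightly higher.

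PARPs use NAD, and 7 of 10 genes of NAD synthesis and use had a mean of at least 1 FPKM. Their median log2 ratio was -0.08 and none was 2-fold apart. Nampt (41.3 and 46.3 FPKM), the rate-limiting enzyme of NAD salvage, and the NAD kinase Nadk (74.6 and 78.2 FPKM) had the highest ratios. Naprt (25.1 and 18.9 FPKM), which uses nicotinic acid, and the riboside kinase Nmrk1 (2.51 and 1.81 FPKM) had the lowest.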
